A study of Homo sapiens with 9 samples.

Results

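To compare residual tumors left by a pair of antibody-drug conjugates directly with each other, RNA-Seq libraries of PC3 xenografts titled PDXd were set against those titled TDXd. The comparison holds 3 P-DXd-titled and 3 T-DXd-titled libraries, 6 of the 9 in the series, and the 16008 genes listed in both deposited count tables, of 16204 genes listed in either. The other 3 libraries, from mice given PBS as vehicle, are shown only as a reference level. PC3 is a human prostate cancer line from a bone metastasis. Per the series record, the cells were placed with Matrigel under the flank skin of 11-week-old male NSG mice, a strain without T, B and NK cells that still has neutrophils, macrophages and stroma. Treatment began at a tumor volume of 90 mm3, and each conjugate was given at 5 mg/kg by weekly retro-orbital injection for 5 cycles, so dose and schedule were matched; the study's methods share the dose and give other values for the age of the mice, the starting volume and the number of cycles. Tumors were collected at the experimental endpoint.

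Sample titles and treatment fields name opposite conjugates for all 6 treated libraries. Groups are therefore named by title, and every direction below turns around if the treatment field is the correct one. The codes in the titles differ between libraries, but no label says that they mark separate animals, so the p-values measure only the spread between these libraries.

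P-DXd (patritumab deruxtecan) and T-DXd (trastuzumab deruxtecan) differ in their antibody, which binds HER3 in the first and HER2 in the second. Linker and payload are shared. After binding, a conjugate of this class is taken up by endocytosis and cut by lysosomal cathepsins, and the released payload traps topoisomerase I on DNA, which blocks replication and arrests cells in S and G2 phase. HER3 (ERBB3) has little kinase activity of its own and signals in pairs with HER2 (ERBB2).

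Total counts over the shared genes ranged from 54480915 to 83720853 in P-DXd-titled libraries, from 66953518 to 73655037 in T-DXd-titled libraries and from 90761520 to 125538301 in PBS libraries. The epithelial keratin KRT8 was at 1044 to 1279 CPM (counts scaled to library size) in the 6 treated libraries, and EPCAM at 511 to 611 CPM. A pair of P-DXd-titled libraries stood apart. Replicate 2 had the lowest depth and a summed level of 7653 CPM over the 25 genes of a skeletal muscle list, against 318 and 669 CPM in replicates 1 and 3 and 571 to 647 CPM in T-DXd-titled libraries. Replicate 1 had the lowest summed fibroblast marker level, 2602 CPM against 3556 to 3833 CPM in the other 5 treated libraries, and the lowest summed macrophage marker level, 67.0 CPM against 85.2 to 108 CPM. The methods do not say whether mouse reads were removed, and in bulk tumors fewer cells of a type and less RNA per cell cannot be told apart.

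The first question was how far the transcriptomes of the conjugate groups differed. Of 14653 genes tested with edgeR's quasi-likelihood test, 4 were called (0.0273%): H3F3C, CXCL5, CXCL6 and ANPEP. A call required an adjusted p no higher than 0.05 together with a 1.5-fold difference or more. All 4 genes were higher in P-DXd-titled libraries. The next smallest adjusted p was 0.348, for PLK1. Calls and p-values below are by this edgeR fit unless another tool is named. DESeq2, which shares the counts and the thresholds, called 24 of 15992 genes (0.15%), 22 with higher P-DXd-titled values, these 4 among them, and 2 with higher T-DXd-titled values. Groups did not overlap for 592 genes with higher P-DXd-titled values (4.04% of those tested) and for 591 with higher T-DXd-titled values (4.03%). An unadjusted p under 0.05 was reached by 330 genes with higher P-DXd-titled values (2.25%) and by 210 with higher T-DXd-titled values (1.43%).

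For most genes the data left room only for small differences. The 95% interval of the log2 difference lay within 1.5-fold in either direction for 10850 genes (74.0%) and within 2-fold for 12513 (85.4%). This precision varied with the level of the gene. Among genes whose mean count over the 6 libraries was 10000 or more, 98.2% of 1587 had an interval within 1.5-fold, and among those under 100 counts this held for 2 of 2431 (0.0823%). A difference at such a low level was therefore not detectable unless it was large. Fitted differences of at least 1.5-fold were seen in 703 genes, of which 570 had a mean under 100 counts.

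**Figure D1:**
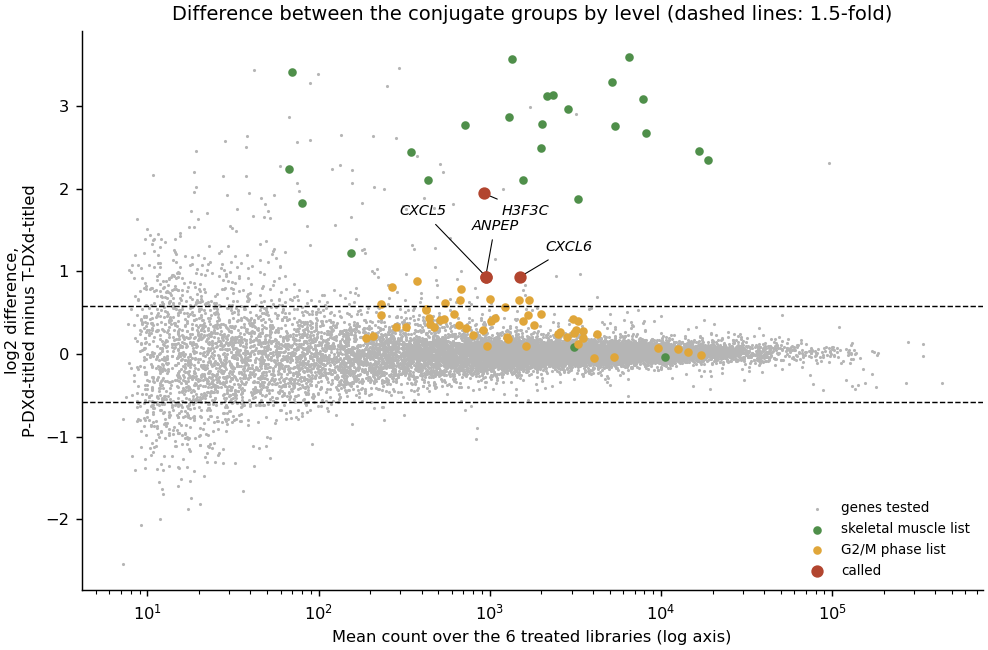
The log2 difference, P-DXd-titled minus T-DXd-titled, is plotted on the vertical axis against the mean count over the 6 treated libraries on a log axis, with 1 point per gene tested (n = 14653) and dashed lines at 1.5-fold. The 4 called genes (red) lie above the upper line, the G2/M phase list (yellow) lies mostly above 0, and the skeletal muscle list (green), which is high in P-DXd-titled replicate 2, holds many of the points above 2.

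Spread within the groups was unequal. The median SD of log2 CPM over genes was 0.142 in the P-DXd-titled group and 0.0953 in the T-DXd-titled group, and the SD was larger in P-DXd-titled libraries for 67.3% of genes. The ratio of these medians was 1.49, was the same without the skeletal muscle list, lay between 1.21 and 1.26 when any 1 P-DXd-titled library was left out, and between 1.53 and 1.93 when any 1 T-DXd-titled library was. Each of these omissions sets an SD over 2 libraries against an SD over 3. The root mean square log2 difference over all genes tested was 0.440 to 0.611 between P-DXd-titled libraries, 0.345 to 0.382 between T-DXd-titled libraries and 0.383 to 0.547 across the groups. Each of the 3 P-DXd-titled libraries was nearest to a T-DXd-titled library, not to one of its own group. The mean distance across groups minus the mean within groups was -0.0041 (exact permutation test over the 10 divisions of the libraries, one-sided p = 0.8); since the smallest possible p is 0.1, this test cannot pass 0.05 at this number of libraries.

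The targets of the conjugates were compared next. ERBB2, which encodes HER2, was at 288, 285 and 372 CPM in P-DXd-titled libraries, at 322, 324 and 319 CPM in T-DXd-titled libraries, and at 62.5, 118 and 131 CPM in PBS libraries. The P-DXd-titled values lay on both sides of the narrow T-DXd-titled range. The log2 difference between the conjugates was -0.03 (95% interval -0.26 to 0.20). ERBB3, which encodes HER3, was at 103, 90.7 and 104 CPM in P-DXd-titled and at 87.8, 92.5 and 95.5 CPM in T-DXd-titled libraries, against 26.9, 66.0 and 72.8 CPM in PBS. The treated groups overlapped, and the difference was 0.11 (95% interval -0.06 to 0.27). For EGFR, another receptor of the family, it was 0.03 (95% interval -0.17 to 0.22). ERBB4 was low, at 0.498 to 1.4 CPM in the treated libraries, and its interval was wide (-0.38 to 1.2). Thus the intervals of 3 of the 4 ErbB receptors lay within 1.5-fold. ERBB2 overlaps MIEN1 and PGAP3 in the listed annotation, and whether strand was used in counting is not given in the sources used here.

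Asporin (ASPN), a secreted stromal proteoglycan, was at 32.3, 26.5 and 33.8 CPM in P-DXd-titled and at 38.1, 33.1 and 35.5 CPM in T-DXd-titled libraries. These ranges overlapped (log2 difference -0.20, 95% interval -0.43 to 0.03), and ASPN also overlaps CENPP. The HER3 ligand NRG1 was at or below 0.505 CPM in all 6 libraries, too low to bound its difference within 2-fold (95% interval -1.74 to 0.39). Of the ErbB ligand list, 0 of 11 genes tested reached an unadjusted p under 0.05, and of 26 adaptors, kinases and feedback genes downstream of the receptors, also 0 did, with 24 intervals within 1.5-fold.

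Most genes of conjugate uptake and of the response to the payload had narrow intervals around small differences. Of 32 genes for endocytosis, lysosomal acidification and cathepsins, 30 had an interval within 1.5-fold, 1 had a higher and 2 a lower P-DXd-titled value at an unadjusted p under 0.05, and the median log2 difference was -0.02, beside 0.00 over all genes tested. The cathepsin genes CTSL and CTSB had differences of 0.06 and -0.07, and LAMP1, a lysosomal membrane protein, of 0.01. TOP1, the target of the payload, was at 213, 190 and 205 CPM in P-DXd-titled and at 212, 207 and 200 CPM in T-DXd-titled libraries, with a difference of -0.02 (95% interval -0.18 to 0.13). All 19 genes of the list for topoisomerase I and repair of its DNA lesions had an interval within 1.5-fold, among them TDP1, which removes trapped topoisomerase I from DNA (0.14, 95% interval -0.05 to 0.32). SLFN11, which blocks stalled replication forks, had a difference of 0.10 (95% interval -0.16 to 0.36). The efflux pumps ABCG2 and ABCB1 were at or below 0.554 CPM in all 6 libraries, and nothing under 2-fold could be resolved for them. In the checkpoint and homologous recombination list 24 of 25 intervals lay within 1.5-fold; 23 of the 25 genes had a higher P-DXd-titled value, with a median of 0.05 and 0 at an unadjusted p under 0.05. In the p53 target list 28 of 30 intervals lay within 1.5-fold.

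**Figure D2:**
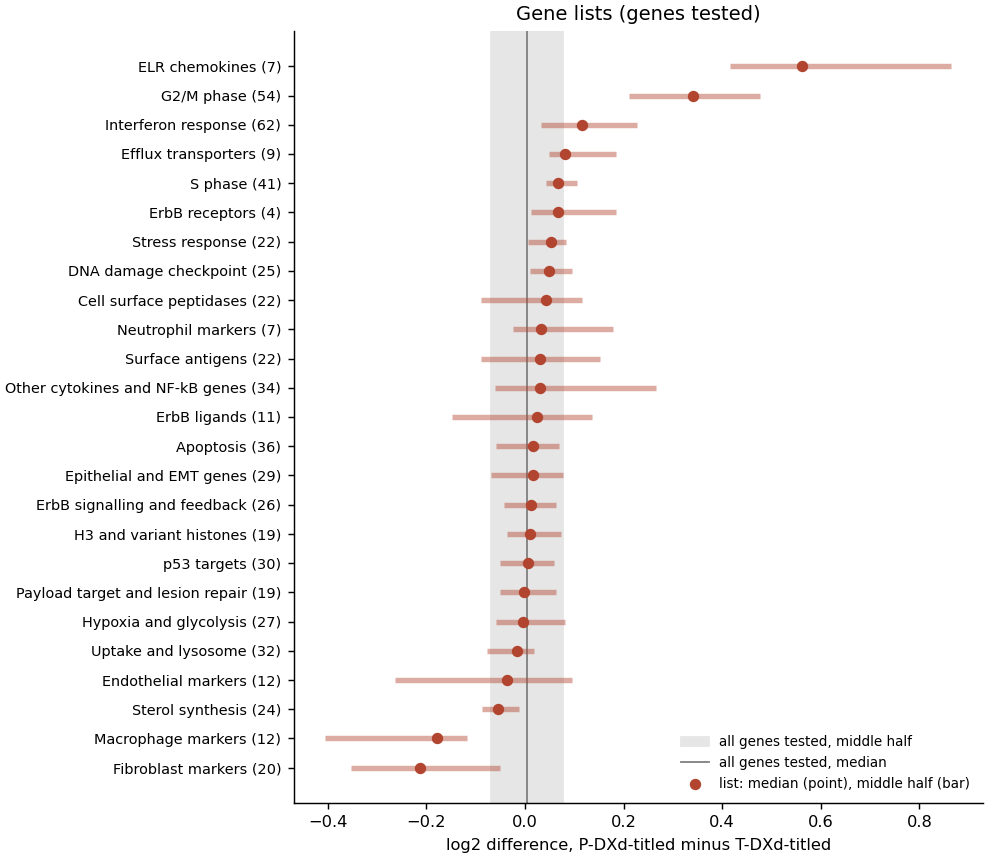
The horizontal axis gives the log2 difference, P-DXd-titled minus T-DXd-titled, and each row is 1 gene list with the number of genes tested in parentheses. Points are list medians and bars the interquartile range of the members, and the grey band is that of all genes tested; the ELR chemokine (median 0.56) and G2/M (0.34) lists stand to the right, the macrophage (-0.18) and fibroblast (-0.21) lists to the left, and the skeletal muscle and Y-linked lists are not drawn.

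ELR chemokines held the first group of differences. These small secreted CXC chemokines carry a Glu-Leu-Arg motif, attract neutrophils through the receptors CXCR1 and CXCR2, and are known targets of the transcription factor NF-kB. CXCL5 (ENSG00000163735.6) was at 18.7, 17.2 and 18.4 CPM in P-DXd-titled libraries, at 10.4, 8.57 and 9.33 CPM in T-DXd-titled libraries, and at 121, 49.7 and 33.0 CPM in PBS libraries. CXCL6 (ENSG00000124875.5) was at 28.7, 32.7 and 25.4 CPM in P-DXd-titled libraries, at 13.6, 15.1 and 16.7 CPM in T-DXd-titled libraries, and at 137, 75.6 and 81.8 CPM in PBS libraries. For both genes the treated groups were well separated, and both lay below every PBS library. The log2 difference was 0.94 for CXCL5 (95% interval 0.71 to 1.17, adjusted p 0.0228 by edgeR's quasi-likelihood test) and 0.94 for CXCL6 (95% interval 0.68 to 1.19, adjusted p 0.0361). In a GENCODE v44 transcript of CXCL5, 0 of 2387 words of 50 bases were shared with CXCL6. In one of CXCL1, 60 of 1125 such words (5.33%) were shared with CXCL2 and 6 (0.533%) with CXCL3. How the alignment placed reads of these genes was not tested.

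Other members followed the same order. CXCL3 was at 15.3, 16.1 and 13.8 CPM in P-DXd-titled and at 9.98, 7.01 and 9.10 CPM in T-DXd-titled libraries (log2 difference 0.79, 95% interval 0.49 to 1.1, adjusted p 0.348). CXCL1 was at 62.3, 63.5 and 78.2 CPM against 42.4, 47.1 and 48.7 CPM (0.56, 95% interval 0.35 to 0.78, adjusted p 0.348). Neither was called by edgeR, although for both the groups did not overlap. DESeq2 called CXCL3 (adjusted p 6.682e-05) but not CXCL1, whose adjusted p of 0.000143 came with a difference under 1.5-fold. CXCL2 and IL8 overlapped between the groups, with differences of 0.28 and 0.35. CXCL5 and CXCL6, called above, are members of the ELR list and are counted in it. Of its 11 genes, 7 were tested, and 7 of 7 had a higher P-DXd-titled mean. The median difference was 0.56 beside 0.00 over all genes. An unadjusted p under 0.05 in that direction was reached by 5 (2.25% of all genes). That count was 4 to 6 when any 1 library was left out, where 1.15% to 4.02% of all genes did so, and 2 of 7 when the PBS libraries shared the fit, where 0.922% did. Among 34 other cytokine and NF-kB genes the median was 0.03, with 4 at an unadjusted p under 0.05 in the same direction, CCL5 the one with the smallest p (34.5, 36.7 and 49.8 CPM against 24.8, 28.7 and 32.9 CPM).

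CXCL1, CXCL2, CXCL3, CXCL5, CXCL6 and IL8 (now CXCL8) lie in 1 cluster on chromosome 4. The 150 bases before the start of each are printed 5′ to 3′ (RefSeq, GRCh38.p14) because all 6 hold the same NF-kB motif, GGAATTTCC, shown in capitals, which begins 77 to 91 bases before the start.
CXCL5 (chr4:73998678-73998827, minus strand): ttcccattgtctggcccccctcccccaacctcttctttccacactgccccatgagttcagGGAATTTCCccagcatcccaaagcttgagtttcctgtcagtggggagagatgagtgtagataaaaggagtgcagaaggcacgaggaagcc
CXCL6 (chr4:73836528-73836677, plus strand): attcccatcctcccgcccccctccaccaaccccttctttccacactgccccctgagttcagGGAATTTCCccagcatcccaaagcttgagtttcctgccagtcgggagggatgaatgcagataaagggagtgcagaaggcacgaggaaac
CXCL3 (chr4:74038690-74038839, minus strand): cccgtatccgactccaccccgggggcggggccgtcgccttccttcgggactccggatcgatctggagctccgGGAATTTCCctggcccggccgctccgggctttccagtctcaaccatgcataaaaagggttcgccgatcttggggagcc
CXCL1 (chr4:73869243-73869392, plus strand): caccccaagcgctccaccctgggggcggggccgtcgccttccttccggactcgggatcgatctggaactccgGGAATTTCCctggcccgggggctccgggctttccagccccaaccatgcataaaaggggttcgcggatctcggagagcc
CXCL2 (chr4:74099196-74099345, minus strand): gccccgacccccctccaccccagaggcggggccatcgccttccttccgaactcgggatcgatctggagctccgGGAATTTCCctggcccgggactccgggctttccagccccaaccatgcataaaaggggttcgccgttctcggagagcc
CXCL8 (listed as IL8; chr4:73740419-73740568, plus strand): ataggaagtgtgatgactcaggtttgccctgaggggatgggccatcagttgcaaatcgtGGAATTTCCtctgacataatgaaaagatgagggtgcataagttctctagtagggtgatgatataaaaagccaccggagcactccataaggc
The letters were searched on both strands in windows from 250 bases before to 50 bases after each start, and 162 of 35116 such windows held them (0.461%). Of the 10 ELR list genes with a window, these 6 held a match. All 6 had a higher P-DXd-titled mean, with log2 differences from 0.28 for CXCL2 to 0.94 for CXCL5 and CXCL6. The 1 tested member of the ELR list outside these 6 also had a higher P-DXd-titled mean, so the direction was not limited to them. Whether the motif has a part in these differences was not tested.

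ANPEP (ENSG00000166825.9) encodes aminopeptidase N, a membrane peptidase also known as CD13. It was at 19.3, 20.1 and 14.9 CPM in P-DXd-titled libraries, at 9.43, 9.63 and 9.29 CPM in T-DXd-titled libraries, and at 290, 149 and 170 CPM in PBS libraries. The T-DXd-titled values were nearly equal and the P-DXd-titled values were all above them, both far below PBS. The log2 difference was 0.94 (95% interval 0.67 to 1.2, adjusted p 0.0426). It was the only called gene among 22 cell surface peptidases tested, where 0.0273% of all genes were called, and their median difference was 0.04.

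H3F3C (ENSG00000188375.3; H3-5) encodes a primate-specific variant of histone H3.3. Its level was 16.9, 28.9 and 20.4 CPM in P-DXd-titled libraries, 5.23, 6.34 and 5.65 CPM in T-DXd-titled libraries, and 15.3, 7.29 and 2.52 CPM in PBS libraries. The conjugate groups did not overlap, and the PBS libraries spread over a wider range than either of them. The log2 difference was 1.94 (95% interval 1.54 to 2.35, adjusted p 0.0101). H3F3C resembles the abundant H3.3 genes in sequence: in its GENCODE v44 transcript, 220 of 1065 words of 50 bases (20.7%) were shared with H3F3B (H3-3B) and 0 with H3F3A (H3-3A), while 16 of 1015 words of 100 bases (1.58%) were shared with H3F3B. H3F3B itself was at 1338 to 1464 CPM in the 6 treated libraries, with a difference of 0.00, and H3F3A had a difference of -0.03 (95% interval -0.24 to 0.18). How far the counting split reads between these copies was not tested. Over the 19 H3 and variant histone genes tested the median was 0.01.

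The 4 calls were not stable to the loss of a library, while the sizes of the differences were. Leaving out T-DXd-titled replicate 1 gave adjusted p-values of 0.117 to 0.497 by edgeR, so none of the 4 was called. Leaving out replicate 3 of the same group gave 0.151 to 0.511. With P-DXd-titled replicate 1 left out, CXCL5, CXCL6 and ANPEP were not called (0.147 to 0.265), and the same 3 genes were not called with T-DXd-titled replicate 2 left out (0.194 to 0.230). Over the fits that left out 1 library, the log2 difference was 1.70 to 2.11 for H3F3C, 0.87 to 1.02 for CXCL5, 0.84 to 1.02 for CXCL6 and 0.86 to 1.06 for ANPEP.

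**Figure D3:**
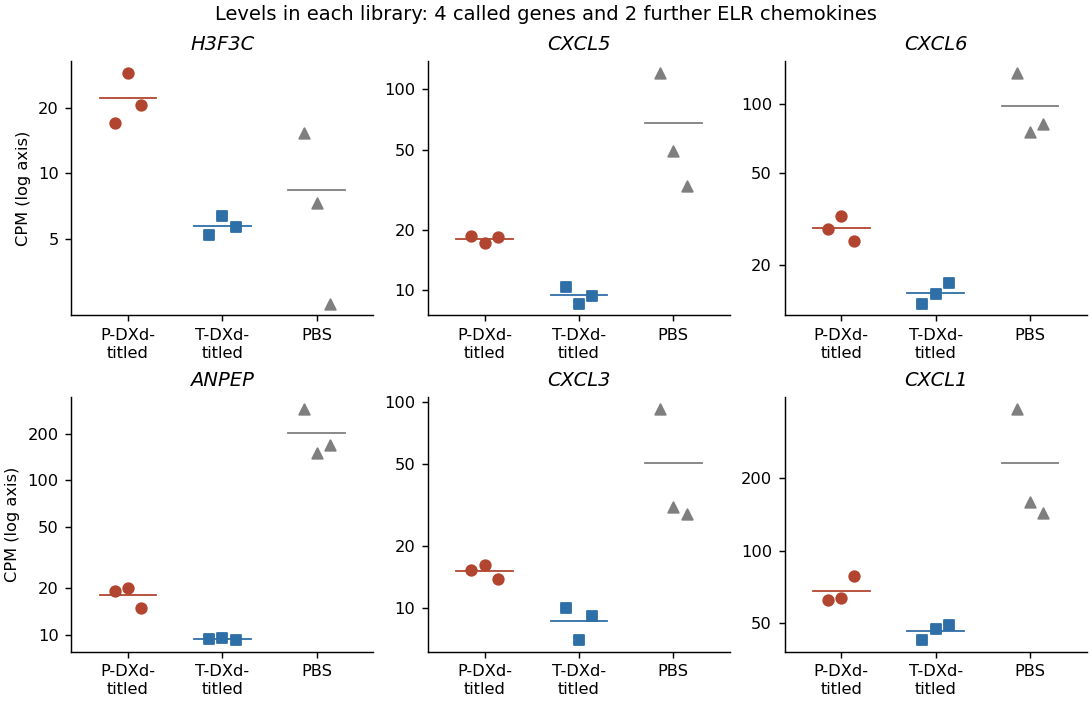
Each panel gives the level of 1 gene in CPM on a log axis in the 3 P-DXd-titled (circles), 3 T-DXd-titled (squares) and 3 PBS (triangles) libraries, with a line at each group's mean. In all 6 panels the P-DXd-titled points lie above the T-DXd-titled points, and except for H3F3C the PBS points lie above both.

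The second group of differences was in mitotic genes. PLK1, a kinase of mitotic entry, was at 12.9, 16.0 and 8.68 CPM in P-DXd-titled libraries, at 4.0, 6.17 and 4.01 CPM in T-DXd-titled libraries, and at 114, 64.9 and 58.2 CPM in PBS libraries. The groups did not overlap (log2 difference 1.41, 95% interval 0.88 to 1.93), but PLK1 was not called by edgeR (adjusted p 0.348), and it overlaps ERN2. It was called by DESeq2 at the same difference (adjusted p 4.976e-08) and by edgeR without P-DXd-titled replicate 3, with a difference of 1.61 (adjusted p 0.0383). The spindle checkpoint kinase BUB1 was at 15.3, 11.2 and 10.6 CPM against 7.02, 7.75 and 6.76 CPM (0.78, 95% interval 0.45 to 1.12). PTTG1, the securin that keeps separase inactive until anaphase, was at 14.1, 14.1 and 12.6 CPM against 8.41, 10.1 and 8.22 CPM (0.61, 95% interval 0.35 to 0.87). FAM83D, a spindle protein, was at 9.63, 10.4 and 7.32 CPM against 5.25, 5.48 and 4.01 CPM (0.89, 95% interval 0.50 to 1.28). None of these 3 was called by edgeR and each was called by DESeq2 (adjusted p 0.000597 for BUB1, 0.0028 for PTTG1 and 0.000531 for FAM83D), and all 3 had levels of 48.2 to 92.7 CPM in PBS.

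Across the G2/M list of 54 genes, the values pointed 1 way. The P-DXd-titled value was higher for 51 of 54 genes, with a median difference of 0.34 beside 0.00 over all genes tested. An unadjusted p under 0.05 was reached by 33 genes with higher P-DXd-titled values, where 2.25% of all genes did, and by 0 with lower values; 22 of 54 did not overlap between the groups, all with higher P-DXd-titled values, where 4.04% of all genes did so. By edgeR no member was called, and by DESeq2 6 of 54 were, where 0.15% of all genes were called. The 6 were BUB1, TOP2A, CDC20, CENPF, HMMR and CENPA, all with higher P-DXd-titled values. BUB1 belongs to this list, whereas PLK1, PTTG1 and FAM83D do not and add nothing to its counts. The other members named here were picked after their values were seen. TOP2A, the decatenating topoisomerase of mitosis, was at 30.5, 33.5 and 26.4 CPM against 19.7, 22.1 and 15.4 CPM (difference 0.66). CDC20, an activator of the anaphase-promoting complex, was at 17.0, 21.4 and 15.6 CPM against 12.8, 11.7 and 9.64 CPM (0.66). MKI67, the proliferation antigen Ki-67, was at 33.9, 37.4 and 29.6 CPM against 25.6, 26.2 and 20.6 CPM (0.48), with 299, 221 and 188 CPM in PBS. All 3 separated the groups, while TUBB4B, the list member with the highest mean count, did not differ beyond its interval (-0.01, -0.15 to 0.14).

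The list score, the mean log2 CPM of the members minus the PBS mean, was -1.76, -1.70 and -2.04 in the P-DXd-titled group and -2.18, -2.06 and -2.32 in the T-DXd-titled group. The gap between the groups was narrow, set by P-DXd-titled replicate 3 and T-DXd-titled replicate 2. The number of members with an unadjusted p under 0.05 was 21 without T-DXd-titled replicate 3, where 1.15% of all genes reached it with higher P-DXd-titled values. It was 23 to 40 without any 1 of the other libraries (1.59% to 4.02% of all genes), and 12 of 54 when the PBS libraries shared the fit (0.922%).

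Replication genes had smaller differences. Of 41 S phase list genes tested, 37 had a higher P-DXd-titled value, but the median was 0.07, 36 intervals lay within 1.5-fold and 2 genes reached an unadjusted p under 0.05. Leaving out P-DXd-titled replicate 3 gave a median of 0.15 with 8 genes at that level (4.02% of all genes), and each other omission gave 1 gene. PCNA, the sliding clamp of DNA polymerases, was at 115, 119 and 95.8 CPM against 104, 111 and 104 CPM, with a difference of 0.04 (95% interval -0.15 to 0.23). The exception by size was CDCA7, a chromatin remodeling partner, at 8.16, 5.93 and 4.26 CPM against 3.17, 3.25 and 3.0 CPM (0.96, 95% interval 0.47 to 1.46), which was called by DESeq2 (adjusted p 0.00692) and not by edgeR.

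**Figure D4:**
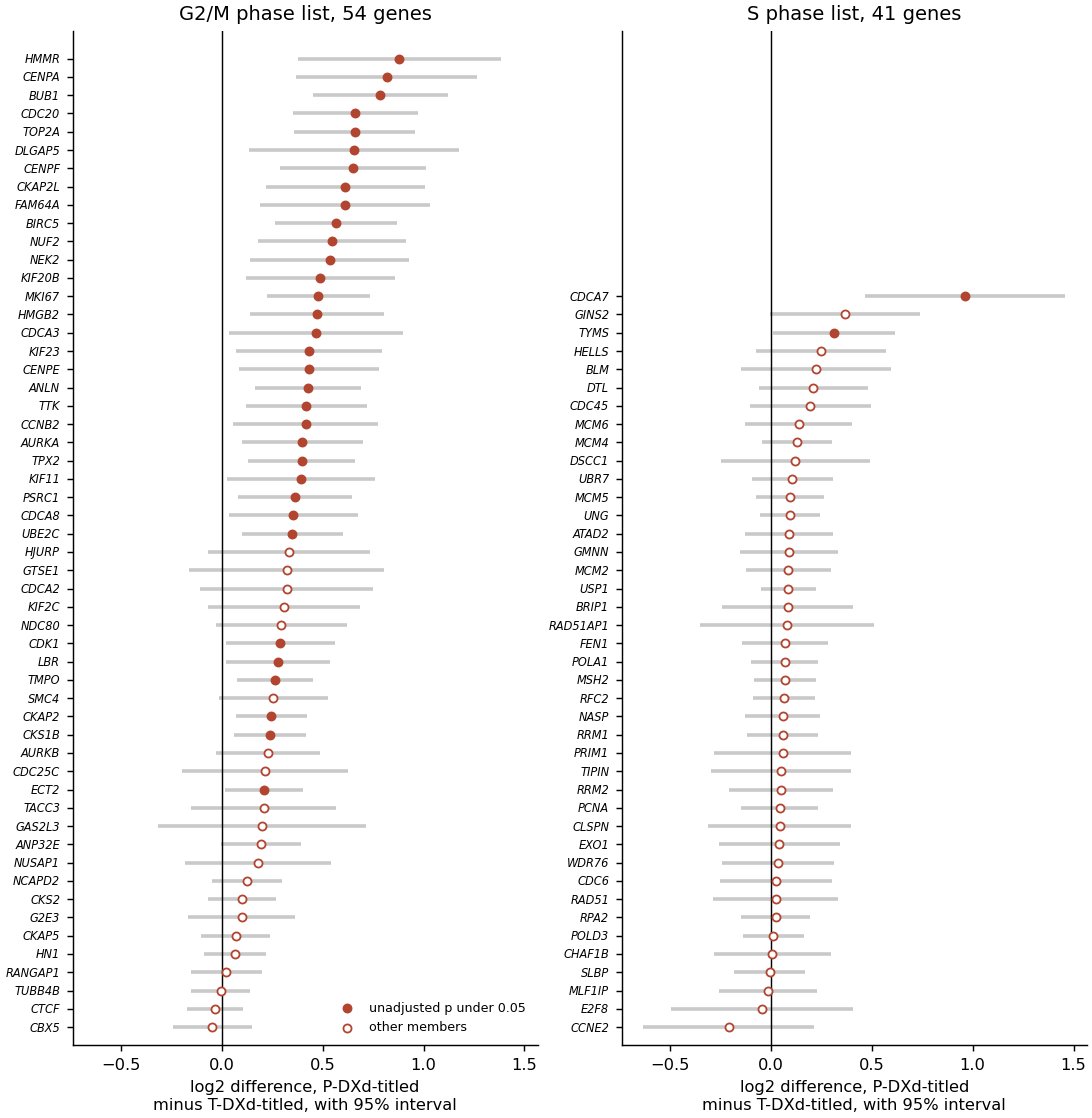
The log2 difference, P-DXd-titled minus T-DXd-titled, of each tested gene is plotted with its 95% interval for the G2/M phase list (left, 54 genes) and the S phase list (right, 41 genes). Filled points have an unadjusted p under 0.05; they number 33 on the left and 2 on the right.

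The 150 bases before the starts of PLK1 and CDC20 are printed because their promoters hold the cell cycle genes homology region (CHR, TTTGAA) together with CCAAT boxes, elements known from late cell cycle genes; both are in capitals (RefSeq, GRCh38.p14, 5′ to 3′).
PLK1 (chr16:23678739-23678888, plus strand): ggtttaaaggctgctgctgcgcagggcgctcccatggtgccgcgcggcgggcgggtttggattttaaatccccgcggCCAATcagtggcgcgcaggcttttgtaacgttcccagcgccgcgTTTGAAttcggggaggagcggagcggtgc
CDC20 (chr1:43358831-43358980, plus strand): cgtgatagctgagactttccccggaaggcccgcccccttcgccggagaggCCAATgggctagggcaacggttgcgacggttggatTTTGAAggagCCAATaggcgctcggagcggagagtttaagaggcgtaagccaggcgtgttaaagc
Searched on both strands, TTTGAA was held by at least 1 window of 33 of the 45 G2/M list genes found in the RefSeq table (73.3%) and of 4961 of all 27305 genes there (18.2%). CCAAT was held by 32 of the 45 (71.1%) and by 39.7% of all genes. Only 32 of the 43 S phase genes listed had a window, too few of the list for the same search, which is void for it. Within the G2/M list the median difference between the conjugate groups was 0.33 for the 33 genes with TTTGAA and 0.27 for the 12 without it, so the difference was not limited to genes with these letters.

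Matrix metalloproteinase 9 (MMP9), which is made by neutrophils and by tumor cells, was at 40.8, 64.4 and 37.6 CPM in P-DXd-titled libraries, at 26.6, 22.3 and 25.1 CPM in T-DXd-titled libraries, and at 35.9, 146 and 235 CPM in PBS libraries. The treated groups did not overlap (log2 difference 0.95, 95% interval 0.55 to 1.34), but the gene was not called (adjusted p 0.397). Without P-DXd-titled replicate 2, its highest library, the difference was 0.67 and was called (adjusted p 0.0481 by edgeR). MMP9 is 1 of 7 neutrophil markers tested (14 were listed), and the median of the 7 was 0.03. With LCN2, a secreted iron-binding protein named after its value was seen (0.31, 95% interval 0.07 to 0.56), it made up the 2 that reached an unadjusted p under 0.05 and did not overlap, both with higher P-DXd-titled values. In that direction, 2.25% of all genes tested reached such a p and 4.04% did not overlap. S100A9, the most abundant marker, had a difference of -0.02. The summed neutrophil marker level was 1517 to 1976 CPM in P-DXd-titled and 1637 to 1951 CPM in T-DXd-titled libraries.

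Interferon-stimulated genes overlapped between the groups. Of 62 tested, 55 had a higher P-DXd-titled value with a median of 0.12, but 0 reached an unadjusted p under 0.05 by edgeR (2 by DESeq2) and 0 were without overlap. Scores were 0.61, 0.31 and 0.82 in the P-DXd-titled group and 0.15, 0.65 and 0.51 in the T-DXd-titled group, and the groups overlapped. The list depended on single libraries in both directions. A median of 0.01 remained with P-DXd-titled replicate 3 left out, and it was -0.01 with T-DXd-titled replicate 1 left out, with 0 genes at an unadjusted p under 0.05 in either fit. With P-DXd-titled replicate 2 left out the median was 0.21 and 27 of 62 genes reached an unadjusted p under 0.05 with higher P-DXd-titled values (3.47% of all genes), and with T-DXd-titled replicate 2 left out these were 0.23 and 15 of 62 (1.59%). B2M, the light chain of class I antigen presentation and the list's highest gene, had a difference of 0.11 (95% interval -0.18 to 0.41).

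Among genes higher in T-DXd-titled libraries 0 were called by edgeR (210 had an unadjusted p under 0.05) and 2 by DESeq2, POSTN and LYZ, and the 6 named by rule were low. POSTN, a matrix protein of activated fibroblasts, was at 7.17, 9.54 and 9.67 CPM in P-DXd-titled and at 14.6, 14.7 and 11.6 CPM in T-DXd-titled libraries (log2 difference -0.63, 95% interval -0.96 to -0.30, adjusted p 0.0129 by DESeq2). LYZ, lysozyme of myeloid cells, was at 6.25, 9.36 and 8.38 CPM against 12.5, 15.4 and 10.4 CPM (-0.68, 95% interval -1.08 to -0.28, adjusted p 0.0312 by DESeq2). Both had lower values in PBS, 2.26 to 6.34 CPM for POSTN and 0.660 to 1.79 CPM for LYZ. DPT, a dermal matrix protein, MYCL, a MYC family transcription factor, CLDN9, a tight junction claudin, and GUCY2D, a membrane guanylate cyclase, were at or below 5.82 CPM in all 6 treated libraries, with differences of -0.69 to -0.85. EGLN3, an oxygen-sensing prolyl hydroxylase induced in hypoxia, was at 13.7, 16.4 and 13.8 CPM against 20.2, 20.5 and 20.7 CPM (-0.49, 95% interval -0.70 to -0.28). Of the 27 hypoxia and glycolysis genes tested, 2 reached an unadjusted p under 0.05, both with lower P-DXd-titled values: EGLN3 and, named after its value was seen, the glycolytic enzyme ENO2 (-0.24). The list's median was 0.00, and EGLN3 overlaps SPTSSA.

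Fibroblast and macrophage markers had mostly lower P-DXd-titled values. POSTN and LYZ are themselves members of these lists and are counted in them. The part of host cells in the differences was not tested. Of 20 fibroblast markers tested, 16 had a lower P-DXd-titled value, with a median of -0.21. An unadjusted p under 0.05 was reached by 4 in that direction (1.43% of all genes) and by 1, COL6A3, in the other (2.25%). Without P-DXd-titled replicate 1 the median was -0.06, and over the fits that left out 1 library it was -0.25 to -0.06. COL1A1, the list's highest gene, was at 711 CPM in that library and at 1106 to 1242 CPM in the other 5. Of 12 macrophage markers, 9 had a lower P-DXd-titled value with a median of -0.18, which was -0.04 without the same library. Over the fits that left out 1 library this median was -0.29 to -0.04. An unadjusted p under 0.05 was reached by 2 of the 12 with lower P-DXd-titled values (1.43% of all genes) and by 0 with higher values. Defining genes of that list were near 0 on the human annotation, C1QB at or below 0.419 CPM and CD14 at or below 1.3 CPM in all 6 libraries. Of 12 endothelial markers, 0 reached an unadjusted p under 0.05 (median -0.04).

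The largest differences of all belonged to skeletal muscle genes and came from 1 library. The sarcoplasmic calcium pump gene ATP2A1 was at 6.96, 619 and 17.2 CPM in P-DXd-titled and at 20.2, 20.1 and 12.6 CPM in T-DXd-titled libraries. Tropomyosin TPM2 was at 38.6, 1473 and 114 CPM against 120, 113 and 85.9 CPM. For both, only P-DXd-titled replicate 2 lay above the T-DXd-titled range. Of the 25 genes in the list, 18 reached an unadjusted p under 0.05 with higher P-DXd-titled values and a median difference of 2.68, yet 0 were without overlap. Leaving out that library turned the median to -0.48, with 0 genes at an unadjusted p under 0.05 in the first direction and 1 in the other.

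**Figure D5:**
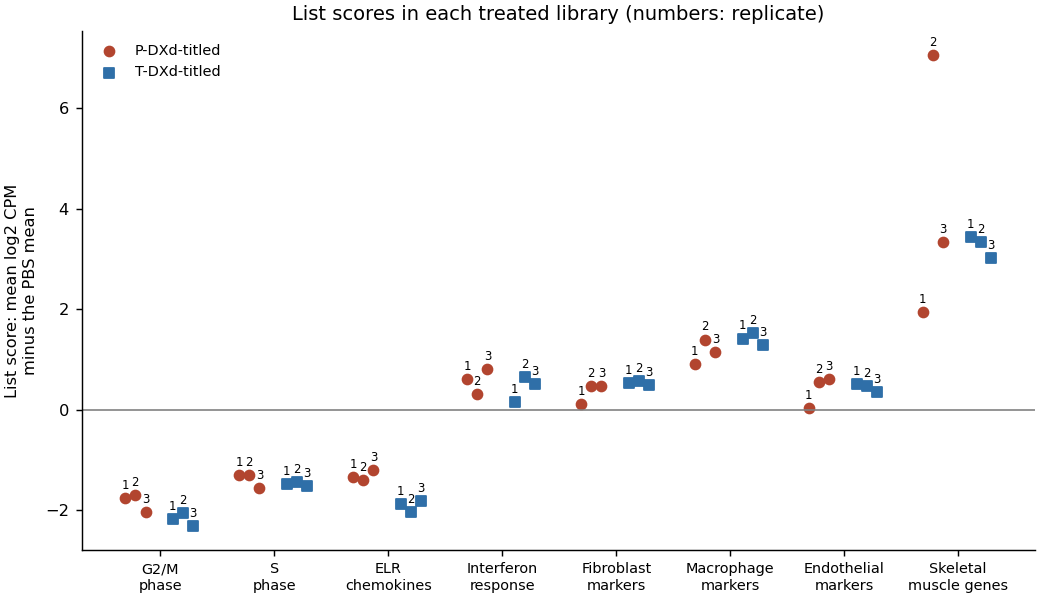
The vertical axis gives the score of 8 gene lists, the mean log2 CPM of the list's genes minus the PBS mean (line at 0), in each of the 6 treated libraries, numbered by replicate. ELR chemokine and G2/M scores of P-DXd-titled libraries (circles) lie above those of T-DXd-titled libraries (squares); interferon scores overlap, and skeletal muscle scores are set by P-DXd-titled replicate 2.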

How the data were processed

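Libraries were made with Illumina TruSeq mRNA kits from total RNA of xenograft tumors. Per the study's methods and processing notes, the authors used Cutadapt for trimming, STAR for alignment and featureCounts for counting, and the deposited tables hold raw counts per gene. GRCh38 is named, but of 15685 shared gene identifiers found in GENCODE v44 only 44 had the coordinates listed, so gene coordinates are not printed. Handling of mouse reads and strand is not given in the sources used here. Tables were joined on gene identifier, and every listed gene reached 5 counts in 2 or more libraries of its table. Columns of per-sample values left unused numbered 0. Chi-square per gene between replicates was 17.2 to 126, so no library was a duplicate.

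Groups follow sample titles. The 6 treated libraries were fitted with edgeR 4.0.16 in R 4.3.3 (TMM, filterByExpr, two-sided quasi-likelihood F test, Benjamini-Hochberg adjustment over all genes). The study's thresholds were used: adjusted p at or below 0.05 and at least 1.5-fold. Intervals at 95% come from the log2 difference and its standard error. Levels are CPM on TMM library sizes of all 9 libraries; scores use log2 CPM with a prior count of 2. Intervals cover the spread between these libraries.

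Genes were named by rule: the called genes; among genes not called with an unadjusted p under 0.05, at least 1.5-fold, a mean count of 100 or more and groups without overlap, the 6 with the smallest p in each direction; receptors, ligands, payload and uptake genes; and of each list the gene with the smallest p or highest mean count. The members, the 27 lists and this rule were chosen with earlier results of these data known, so no list is independent support. Alternatives were DESeq2 1.42.0, limma 3.58.1 voom with group weights, RLE size factors, other count filters, all 9 libraries in 1 fit, a replicate block and leaving out each library; counts per list under these fits, and the spread without muscle genes, were chosen after seeing the data. The fit was tested on simulated data with the same spread in both groups, so the unequal spread seen here was not part of that test.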

Additional observations from a re-analysis of the deposited data

Results flagged for a closer look

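The response relative to PBS differed between the conjugate groups, by the direct contrast of the groups, for the 4 called genes, with log2 differences of 1.94 for H3F3C, 0.94 for CXCL5, 0.94 for CXCL6 and 0.94 for ANPEP. With all 9 libraries in 1 fit none of the 4 was called (adjusted p 1.0 each by edgeR), and each lost its call without T-DXd-titled replicate 1 or replicate 3.

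Genes listed in only 1 of the tables were outside the comparison, since the values of the other conjugate group were not analysed here for them. The PBS libraries are in both tables, and every listed gene reached 5 counts in more than 1 library of its table. If that was the rule for listing, a gene in only 1 table had at most 1 PBS library at 5 counts or more. Low PBS counts were then partly fixed in advance, so the counts below cannot decide whether these genes rose under treatment. Of 90 genes listed only with the P-DXd-titled libraries, 9 had at least 5 counts in all 3 of these and more in each than in any PBS library. They include TNMD, a tendon protein, with 6, 89 and 7 counts against 0 in each PBS library, and CHRND, a subunit of the muscle acetylcholine receptor, with 11, 27 and 12 counts against 0, 1 and 1; both were highest in the library that was high in skeletal muscle genes. Of 106 genes listed only with the T-DXd-titled libraries, 8 met the same condition. They include PRKAG3, a subunit of the AMP-activated kinase of skeletal muscle, with 10, 13 and 11 counts. The highest count among the 9 and 8 genes was 89, in TNMD. These examples were chosen after their values were seen.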

How the results depend on the processing

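The number of called genes was 24 with DESeq2 (22 with higher P-DXd-titled values, all 4 called genes among them) and 0 with all 9 libraries in 1 fit, where 235 genes had an unadjusted p under 0.05. When 1 library was left out it ranged from 0 to 8. The lowest count, 0, came from leaving out T-DXd-titled replicate 1 (425 genes at an unadjusted p under 0.05), and the highest, 8, from leaving out P-DXd-titled replicate 3. Each of 3 further omissions left 1 gene, namely P-DXd-titled replicate 1 and replicates 2 and 3 of the T-DXd-titled group, and in the last case that gene had higher T-DXd-titled values and was none of the 4. The causes were not tested. Each of 5 settings gave 4 genes: voom with group weights, RLE size factors, no fold change minimum, no count filter, and a minimum of 10 counts in every library. The share of intervals within 1.5-fold was 63.5% with all 9 libraries in 1 fit and 68.1% to 78.4% in the other fits.

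The first digit of the code in the titles was tried as a replicate block. Deviations of libraries with the same digit had correlations of -0.0414 to 0.0967, and those with different digits of -0.108 to 0.0442. These ranges overlap, and deviations from means of 3 libraries cannot decide whether the digit marks a shared batch. No label says what the digit means, and the main fit leaves it out. With this replicate block 3 genes were called, 2 of them among the 4 (H3F3C and CXCL5), and CXCL1 was the other (log2 difference 0.64, adjusted p 0.0287 by edgeR), while CXCL6 and ANPEP both had an adjusted p of 0.0882. Under the block 34 of 62 interferon genes had an unadjusted p under 0.05 with higher P-DXd-titled values, and 25 of 54 G2/M genes did, where 1.94% of all genes did. The 2431 genes under a mean of 100 counts had intervals with a median half-width of 1.01 on the log2 scale, against 0.17 at 10000 counts or more.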

Other observations

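Among the 40 genes with the smallest p, 35 had higher P-DXd-titled values; over all genes tested 7607 of 14653 did. Of the 40, 8 were in the G2/M list, 4 were ELR chemokines and 1 was in the S phase list. The genes below are from these 40, belong to no list, were not called and were chosen after their values were seen.

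Several encode secreted or matrix proteins. TFPI2, a protease inhibitor of the matrix, was at 109, 120 and 92.7 CPM in P-DXd-titled and at 72.9, 79.4 and 74.8 CPM in T-DXd-titled libraries (log2 difference 0.50, 95% interval 0.30 to 0.71), and it overlaps GNGT1. TNFRSF11B, the RANKL decoy receptor osteoprotegerin, was at 60.8, 81.8 and 57.5 CPM against 47.6, 41.1 and 48.0 CPM (0.55, 95% interval 0.27 to 0.82), with 1.22 to 10.3 CPM in PBS. COL8A1, a short-chain collagen, was at 74.0, 71.3 and 81.9 CPM against 57.1, 58.5 and 60.4 CPM (0.37, 95% interval 0.21 to 0.53). In each of these 3 genes every P-DXd-titled library lay above every T-DXd-titled library, where 4.04% of all genes did so. The genes were picked by a small p, so this separation adds no support. ALDH1A1, which makes retinoic acid, was at 26.8, 22.4 and 24.2 CPM against 17.9, 18.0 and 15.2 CPM (0.52, 95% interval 0.30 to 0.75).

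In the other direction, CADM1, a cell adhesion molecule, was at 22.4, 26.3 and 20.8 CPM in P-DXd-titled and at 33.8, 29.7 and 30.6 CPM in T-DXd-titled libraries (-0.44, 95% interval -0.67 to -0.21). OLFML3, a secreted olfactomedin family protein, was at 60.0, 57.0 and 74.0 CPM against 81.9, 79.4 and 86.4 CPM (-0.37, 95% interval -0.59 to -0.16). Both were lower in every PBS library than in every treated library.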
